A study of Mus musculus with 30 samples.

Results

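The genes described here move iron into, through and out of cells and build heme from it. They were chosen by name for these roles: Tfrc, Trf, Tfr2, Slc11a2, Slc40a1, Hamp, Alas1, Fech and Hpx. All 9 were measured, each by 1 probe set that names no other gene, out of 18781 genes and 28815 probe sets on the arrays. RNA came from male C57Bl/6 mice (C57Bl/6 J in the study's methods) of 10 to 12 weeks. Of these, 5 ate chow ad libitum and 5 had their food withdrawn at the start of the light phase and were killed after 24 h. Epididymal white adipose tissue (WAT, the fat pad beside the testis), liver (LIV) and skeletal muscle (SM) of each mouse were put on 1 Affymetrix gene array each, which gave 30 arrays in 6 groups of 5. The labels name no transgene or mutation, and the comparison asked what food deprivation does to transcript levels in each tissue.

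Iron travels in blood bound to transferrin, the product of Trf, and most cells take it up through the transferrin receptor encoded by Tfrc. It leaves cells through ferroportin, encoded by Slc40a1, which the liver hormone hepcidin (Hamp) removes from the cell surface. Inside cells, iron regulatory proteins bind the mRNAs of several of these genes and adjust their stability or translation to the iron supply, and in mitochondria iron is inserted into protoporphyrin to make heme.

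Levels are log2 values from robust multi-array average (RMA), so a difference of 1 is a doubling. They compare 1 gene between arrays and not one gene with another. Calls needed an adjusted p below 0.05 in limma together with a difference of 1.3-fold or more. The tissue labels matched their markers. Means over 8 hepatocyte markers were 12.5 to 12.6 on LIV arrays and at most 5.30 elsewhere, means over 10 muscle fibre markers were 12.4 to 12.6 on SM arrays, and means over 9 adipocyte markers were 11.3 to 12.0 on WAT arrays. The adipocyte markers also reached 8.29 to 10.05 in SM. A pair of arrays stood apart and was left out of the fit. Fed LIV 4 correlated with the rest of its group at a mean r of 0.987, and fasted SM 5 at 0.980, where its mean over 7 lymphocyte markers was 8.48 against at most 4.36 on the other muscle arrays. Values of the 9 genes on them are given in brackets where a gene is not dim, and calls of the 9 genes and of the lists on iron and heme that change with all 30 arrays are named. In such pieces of tissue, fewer cells of a type and less RNA per cell cannot be told apart.

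After 24 h without food, 2 of the 9 genes were called in WAT, none in LIV and 2 in SM. The background was 13.2% of all probe sets called in WAT, 6.55% in LIV and 11.9% in SM. The gene called in each direction was the same in WAT and SM: Tfrc, for iron uptake, was lower and Slc40a1, for iron export, was higher. In WAT, 6.93% of all probe sets were called higher and 6.23% lower, in LIV 3.12% and 3.43%, and in SM 6.35% and 5.52%. The median change over the 9 genes was 0.07 in WAT, -0.07 in LIV and -0.06 in SM, beside 0.01, 0.03 and -0.00 over all genes. In LIV, where limma called 0, 2 of the 9 had an unadjusted p under 0.05, and a linear model without moderated variances also called 0.

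**Figure D1:**
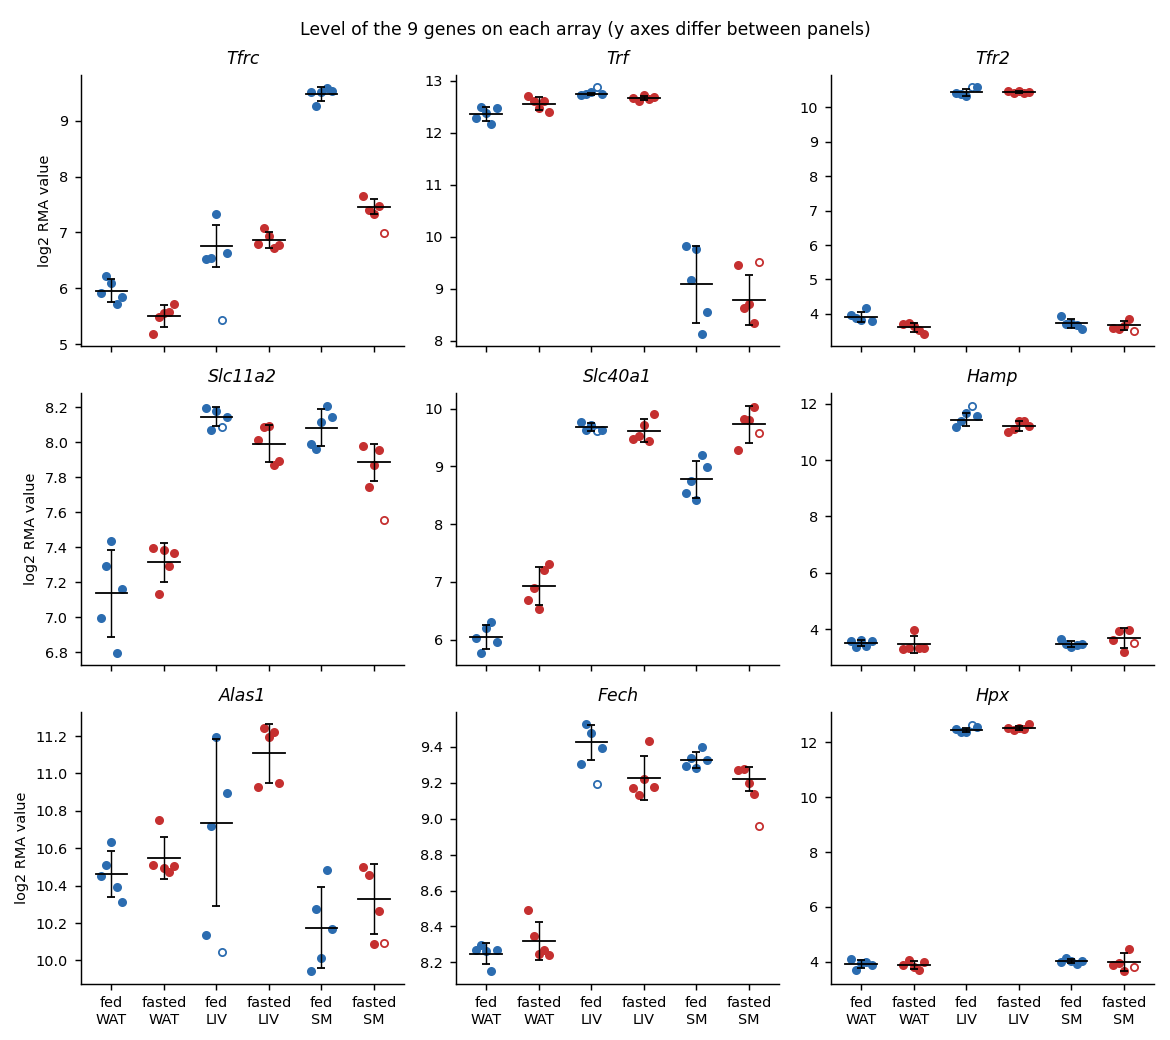
The log2 RMA value of each of the 9 genes (y axis) on each array of the 6 groups (x axis), with blue points for fed mice, red points for fasted mice, lines and bars for the mean and SD, and open points for the arrays left out. Tfrc in SM falls from between 9.27 and 9.59 to between 7.34 and 7.65, and Hamp, Tfr2 and Hpx lie far higher in LIV than in the other tissues.

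**Figure D2:**
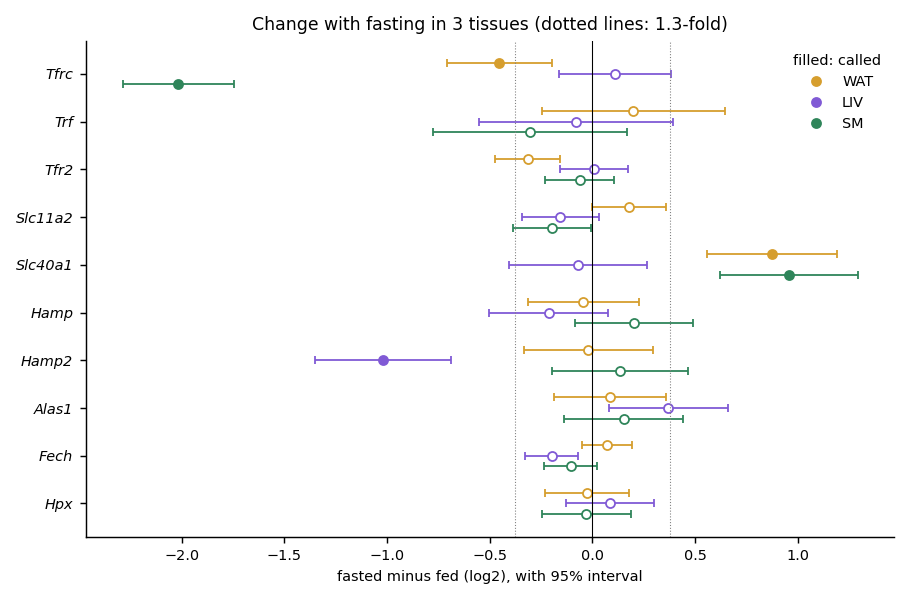
Fasted minus fed difference on the log2 scale (x axis) for the 9 genes and Hamp2 (y axis) in WAT, LIV and SM, with 95% intervals from limma and filled points for called changes. Tfrc in SM at -2.02 is the farthest from 0, and Slc40a1 lies near 0.9 in both WAT and SM.

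Tfrc encodes the receptor that brings iron-loaded transferrin into the cell, and its mRNA carries elements that iron regulatory proteins bind. In fed SM its level was 9.51, 9.27, 9.51, 9.59 and 9.53 on arrays 1 to 5. In fasted SM it was 7.65, 7.40, 7.34 and 7.47 on arrays 1 to 4 (6.99 on array 5). Every fasted muscle lay below every fed muscle. The change was -2.02 (SE 0.13), a 4.05-fold lower level, with a limma adjusted p of 6.04e-12, and over all alternatives it stayed between -2.18 and -1.97. Groups that did not overlap were seen for 19.4% of all probe sets in SM, and for Tfrc, Slc40a1 and Fech among the 9 genes.

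In WAT, Tfrc was 5.92, 6.22, 6.10, 5.71 and 5.84 in fed mice. It was 5.19, 5.49, 5.55, 5.57 and 5.72 in fasted mice. The groups overlapped by 1 fasted array that lay just above the lowest fed one. Tfrc was 1.37-fold lower (-0.45, SE 0.12, limma adjusted p = 0.00654). The call was lost when all 30 arrays were fitted (-0.45, SE 0.19, adjusted p = 0.0971). That fit adds no WAT array, and its larger SE comes from the spread shared over all groups. It was also lost, through the minimum fold, without fasted WAT 1 (-0.37, adjusted p = 0.0303).

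In LIV, Tfrc was 6.52, 6.54, 7.32 and 6.64 in fed mice (5.44 on array 4). Fasted livers gave 6.80, 7.08, 6.94, 6.72 and 6.78. These lay within the fed range, and the difference was 0.11 with a 95% interval from -0.16 to 0.38 (limma adjusted p = 0.682). The change in SM differed from that in WAT by -1.56 (adjusted p = 5.08e-07), and LIV differed from SM by 2.13 (adjusted p = 4.34e-09) and from WAT by 0.56 (adjusted p = 0.0300). Such differences between tissues passed the test for 17.1%, 16.4% and 17.7% of all probe sets. Fed SM held the highest Tfrc level, 6.62-fold above LIV, and fed LIV was 1.74-fold above WAT.

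Slc40a1 encodes ferroportin, the iron exporter of cells, which macrophages that recycle red cells carry in quantity. In WAT it was 6.02, 5.78, 6.20, 6.30 and 5.96 in fed mice. In fasted mice it was 6.70, 6.90, 6.54, 7.20 and 7.31. All fasted fat pads lay above all fed ones, as for 18% of all probe sets in WAT and, among the 9 genes, for Tfr2 in the other direction. The rise was 1.84-fold (0.88, SE 0.15, limma adjusted p = 7.10e-05).

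In SM, Slc40a1 was 8.54, 8.75, 8.42, 9.20 and 8.99 in fed mice. In fasted mice it was 9.28, 9.82, 9.81 and 10.03 (9.58 on array 5). The ranges again did not overlap, and the rise was 1.94-fold (0.96, SE 0.16, adjusted p = 6.25e-05). In LIV, fed arrays gave 9.77, 9.63, 9.71 and 9.64 (9.62 on array 4), and fasted arrays 9.48, 9.53, 9.72, 9.43 and 9.91. The groups overlapped, with a difference of -0.07 and a 95% interval from -0.41 to 0.27. The LIV change differed from that in WAT by -0.95 (adjusted p = 0.00330) and from that in SM by -1.03 (adjusted p = 0.00224), while WAT and SM differed by 0.08 with an interval from -0.38 to 0.54. In fed mice LIV was the highest, 1.88-fold above SM and 12.4-fold above WAT.

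Since macrophages carry ferroportin, their markers were read beside it. Of 11 markers, 2 rose in WAT, namely Cd14 and Cd163, 2 rose in SM, namely Cd68 and Cd163, and none fell in either. Among all probe sets, 6.93% were called higher in WAT and 6.35% in SM. The mean over the list was 8.61 to 8.81 in fed and 8.55 to 9.17 in fasted WAT, and 6.31 to 6.76 in fed and 6.42 to 6.98 in fasted SM. With that mean as a covariate, the Slc40a1 change was 0.81 in WAT (adjusted p = 0.000108) and 1.05 in SM (adjusted p = 1.95e-05). The mean is over markers that did not all change alike, and the part of macrophages in either rise was not tested. In LIV, 4 of the 11 macrophage markers and 4 of 6 Kupffer cell markers fell, beside 3.43% of all probe sets called lower there. The Kupffer cell mean was 6.97 to 7.63 in fed and 6.49 to 6.92 in fasted LIV, with Slc40a1 level as above, and its part in that level was not tested.

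Among all probe sets, 6.23% were called lower in WAT. Of the 9 adipocyte markers there, 2 fell, Lep (-1.93) and Slc2a4 (-1.15), and the other 7 were not called, at -0.31 to 0.35. The mean of all 9 was 11.8 to 12.0 in fed and 11.3 to 11.7 in fasted WAT, without overlap. A covariate that separates the diets cannot be told apart from diet. With it, Slc40a1 changed by 0.54 (SE 0.23, adjusted p = 0.157) and Tfrc by -0.48 (SE 0.20, adjusted p = 0.140), so neither was called, while the Tfrc difference stayed near -0.45 and its SE grew. In SM both calls held with adipocyte, macrophage or slow fibre markers as the covariate, with Tfrc between -2.03 and -1.98 and Slc40a1 between 0.74 and 1.05.

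Trf encodes transferrin, the iron carrier of plasma, which the liver secretes. Group means were 12.36 (SD 0.14, n = 5) in fed and 12.56 (SD 0.12, n = 5) in fasted WAT. They were 12.74 (SD 0.03, n = 4) in fed (12.88 on array 4) and 12.67 (SD 0.04, n = 5) in fasted LIV. Neither change was called (0.20 and -0.08). Fed LIV lay at 12.72 to 12.78 and fed WAT at 12.16 to 12.50. The difference of 0.39 (95% interval -0.09 to 0.86) was not called. All of these tests use 1 spread estimated over the 6 groups, and Trf spread far more in SM (SD 0.74 in fed SM). Fed SM was 9.66-fold below WAT and 12.6-fold below LIV.

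Within SM, Trf spread more than any other of the 9 genes there. Fed arrays 1 to 5 gave 9.82, 9.17, 9.76, 8.13 and 8.55. Fasted arrays 1 to 4 gave 9.46, 8.62, 8.70 and 8.35 (9.52 on array 5). The groups overlapped almost fully, with a change of -0.30 (SE 0.23, adjusted p = 0.405). The adipocyte marker mean on the same arrays was 10.05, 9.44, 9.81, 8.29 and 8.74 in fed and 9.17, 8.83, 8.87 and 8.38 in fasted SM (9.27 on array 5). Arrays with more adipocyte marker signal had more Trf, in both diets. With the adipocyte mean as a covariate, the change in SM was 0.17 (adjusted p = 0.223). With the slow fibre mean it was -0.51 (adjusted p = 0.0467), and without fed SM 4, the array with the lowest Trf, it was -0.54 (adjusted p = 0.04998), both called.

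**Figure D3:**
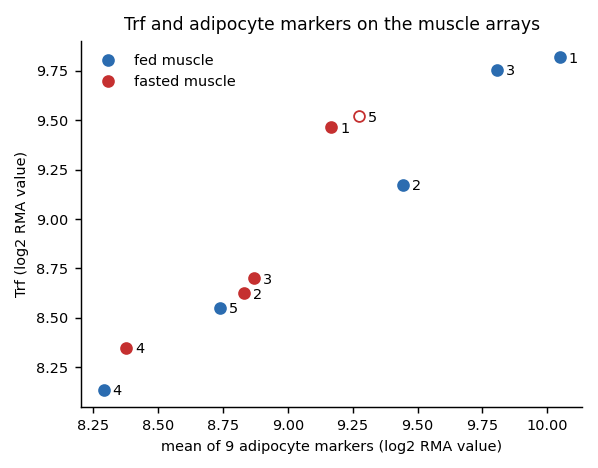
Trf level (y axis, log2 RMA value) against the mean of 9 adipocyte markers (x axis, log2 RMA value) on the 10 muscle arrays, numbered by mouse, with fed arrays in blue, fasted arrays in red and fasted SM 5 as an open point. Fed arrays 4 and 1 hold the lowest and highest values of both measures.

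Tfr2 encodes a second transferrin receptor that serves hepatocytes as a sensor of iron-loaded transferrin. It was 10.44 (SD 0.11, n = 4) in fed (10.58 on array 4) and 10.45 (SD 0.03, n = 5) in fasted LIV, a change of 0.01 with a 95% interval from -0.16 to 0.17. In WAT and SM its signal was dim, below 5.02, the median of all values. In WAT it was 3.80 to 4.16 in fed and 3.42 to 3.75 in fasted mice, without overlap. It was 0.32 lower on the log2 scale there (limma -0.32, adjusted p = 0.00231), below the minimum fold. In SM the groups overlapped, with a change of -0.06 (limma adjusted p = 0.669). The WAT and LIV changes differed by 0.32 (adjusted p = 0.0448). Fed LIV was above both WAT and SM, and no fold is given against dim values.

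Slc11a2 encodes the divalent metal transporter that carries iron out of endosomes and, in the gut, into cells. No tissue passed the test, with changes of 0.18 in WAT, -0.16 in LIV and -0.20 in SM. Fed levels were 6.80 to 7.43 in WAT, 8.07 to 8.20 in LIV (8.09 on array 4) and 7.96 to 8.21 in SM. Fasted levels were 7.13 to 7.40, 7.87 to 8.09 and 7.74 to 7.98 (7.55 on SM array 5). The SM change was lower than the WAT change by 0.38 on the log2 scale (limma -0.38, adjusted p = 0.0404). Fed LIV and SM did not differ beyond their spread (0.06, 95% interval -0.13 to 0.25), and both were about 1 above WAT (1.01 and 0.95).

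Hamp encodes hepcidin, and mice carry a near-copy, Hamp2, beside it on chromosome 7. The promoters of the pair are shown because Hamp2 but not Hamp was called in LIV, a difference between the probe sets that was not itself tested. In the RefSeq promoter table for GRCm38.p6, the 250 bases before each start were aligned. Of 253 alignment columns, gaps included, 89.7% are identical. The stretches run from 170 to 51 bases before each start on the minus strand, Hamp at chr7:30944080-30944199 and Hamp2 at chr7:30924232-30924351. Capitals mark a BMP response element core, searched as GGCGCC, through which SMAD proteins act on hepcidin, and a STAT site, searched as TTCTTGGAA, through which inflammatory cytokines act on it.
Hamp: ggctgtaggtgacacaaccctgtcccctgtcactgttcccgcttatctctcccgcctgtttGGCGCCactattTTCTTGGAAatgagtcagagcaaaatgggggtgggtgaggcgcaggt
Hamp2: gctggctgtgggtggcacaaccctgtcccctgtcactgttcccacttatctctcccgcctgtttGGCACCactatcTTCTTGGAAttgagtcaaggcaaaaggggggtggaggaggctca
The core lies at 109 bases before the start in Hamp, and the matching bases of Hamp2 carry the substitution G4A, counted from 1 at the 5′ end of the motif. The STAT letters are the same in both, at 97 and 94 bases before the start. Both motifs were searched on both strands of the 250 bases before each start, and they do not overlap each other. Of 32851 promoter windows of the table, 9.59% hold the core and 0.365% the STAT letters within those bases. Promoters of 5 of the 9 genes were in the table, and among the others the core was found for Tfrc, at 89 bases before 1 of its starts. A match describes letters and not binding, and whether the substitution bears on the level of either gene was not tested.

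In LIV, Hamp was 11.15, 11.37, 11.65 and 11.56 in fed mice (11.93 on array 4). It was 10.99, 11.11, 11.39, 11.39 and 11.22 in fasted mice. The groups overlapped, and the change of -0.21 (SE 0.14) had a 95% interval from -0.50 to 0.07 and an adjusted p of 0.370, which was 0.167 with all 30 arrays (-0.31). In WAT and SM Hamp was dim, at 3.20 to 3.98 on all used arrays. No WAT or SM change was called.

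Hamp2 in LIV was 7.69, 8.17, 8.20 and 8.48 in fed mice (9.18 on array 4). It was 6.58, 7.12, 7.47, 7.20 and 7.23 in fasted mice. Every fasted liver lay below every fed one, as for 14.6% of all probe sets in LIV. The fall was 2.03-fold (-1.02, SE 0.16, limma adjusted p = 5.15e-05), and it ranged from -1.23 to -0.88 over all alternatives. It differed from the change in WAT by -0.998 (adjusted p = 0.00177) and from that in SM by -1.15 (adjusted p = 0.00062). Whether either probe set also captures transcripts of the other gene was not tested, since probe sequences were not used here.

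**Figure D4:**
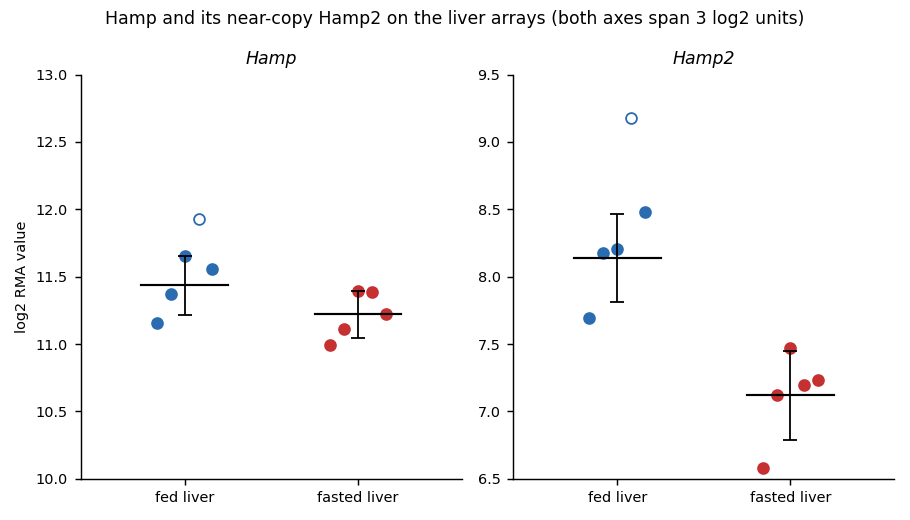
Log2 RMA values (y axes, each spanning 3 units) of Hamp and Hamp2 on the fed and fasted liver arrays, with means and SDs as lines and bars and fed LIV 4 as an open point. Hamp overlaps between diets, while all fasted values of Hamp2 lie below 7.69, the lowest fed value.

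Alas1 encodes the first and rate-limiting enzyme of heme synthesis outside red cell precursors. In LIV it was 10.14, 10.72, 11.20 and 10.90 in fed mice (10.05 on array 4). It was 10.93, 11.24, 11.20, 11.22 and 10.95 in fasted mice. Fed livers spread over about 1 log2 unit and fasted livers over about 0.3. The rise of 0.37 (SE 0.14, limma adjusted p = 0.0861) was not called. It was called with all 30 arrays (0.51, adjusted p = 0.0254) and without fed LIV 3, the highest fed array (0.52, adjusted p = 0.0118). In WAT and SM the changes were 0.09 and 0.15 (10.09 on SM array 5). Fed WAT lay below LIV by 0.28, with a 95% interval from -0.01 to 0.57. Fed SM lay below WAT (SM minus WAT -0.29, 95% interval -0.56 to -0.01, adjusted p = 0.0686), which did not pass the adjusted p, while LIV was 1.48-fold above SM (adjusted p = 0.0011).

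Fech encodes ferrochelatase, which inserts iron into protoporphyrin in the last step of heme synthesis. In LIV it was 9.30 to 9.52 in fed (9.19 on array 4) and 9.13 to 9.43 in fasted mice, a difference of -0.20 (SE 0.06) that passed the adjusted p (0.0344) but not the minimum fold, and neither with all 30 arrays (-0.15, adjusted p = 0.175). In SM it was 9.28 to 9.40 in fed and 9.14 to 9.28 in fasted mice (8.96 on array 5), with no overlap and an adjusted p of 0.260 (-0.11). In WAT the change was 0.07, and LIV differed from WAT by -0.27 (adjusted p = 0.0296). Fed LIV and SM did not differ beyond their spread and were 2.26-fold and 2.11-fold above WAT.

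Hpx encodes hemopexin, the plasma protein that binds free heme and delivers it to the liver. It was 12.37 to 12.55 in fed (12.62 on array 4) and 12.46 to 12.66 in fasted LIV, with a change of 0.09 and a 95% interval from -0.13 to 0.30. In WAT and SM it was dim, at 3.65 to 4.45. Over the 9 genes and the 3 pairs of tissues, 19 of 27 fed levels differed by the same rule, against 39.4% of all probe sets for LIV and WAT, 41.7% for SM and WAT and 42.8% for LIV and SM.

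Around these genes stand lists of their regulators and partners, and 35 of 77 measured genes on the 6 main lists, or 45.5%, were called in at least 1 tissue. The same held for 28.6% of all genes and 24.9% of all probe sets. The lists were chosen with earlier results of these data known, so these shares are no test of the lists. Beside the counts below, 13.2% of all probe sets were called in WAT, 6.55% in LIV and 11.9% in SM. Of 22 genes that control hepcidin, 5 rose and 1 fell in WAT (median 0.14), none was called in LIV (median 0.01) and 2 rose and 2 fell in SM (median 0.11). The gene that fell in WAT was Hfe, a partner of the transferrin receptors mutated in human hemochromatosis, from 9.11 to 9.38 in fed to 7.67 to 8.25 in fasted mice (-1.21, SE 0.08, limma adjusted p = 1.41e-11). Atoh8 (0.80) and Id1 (0.78), a BMP target, rose there most, and Stat3, Fgl1 and Smad6, named after their values were seen, rose by 0.57, 0.48 and 0.42. The last pair were not called without fasted WAT 4 (Fgl1 0.36, adjusted p = 0.0631, and Smad6 0.38, adjusted p = 0.0528), nor was Smad6 without fasted WAT 5 (0.33, adjusted p = 0.0671) or fed WAT 2 (0.28, adjusted p = 0.0788). In SM, Acvr1, a BMP receptor, fell by 0.54 on the log2 scale and Bmp6, the ligand that reports liver iron, rose by 0.47, while Atoh8 rose by 0.45 (0.37, below the minimum fold, without fed SM 1). Acvr2a, named after its value was seen, fell by 0.41 there, and by less than the minimum fold without fasted SM 1 (-0.38), fasted SM 2 (-0.35) or fed SM 3 (-0.36). The Bmp6 call was lost with all 30 arrays, where its 0.37 was below the minimum fold, and 1 gene of the list then rose in SM and 4 fell, Hfe (-0.42) and Bmpr1a (-0.39) being added. In LIV, Creb3l3 (0.39) was then called higher and Tmprss6 (-0.39) lower, from 0.33 and -0.34 below the minimum fold.

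Of 11 other genes of cellular iron uptake, 3 rose and 3 fell in WAT (median -0.06), 1 fell in LIV (median 0.03) and 3 rose and 2 fell in SM (median -0.05). Steap3, the ferrireductase that works beside the transferrin receptor in endosomes of red cell precursors, was 8.55 to 8.71 in fed and 7.71 to 7.87 in fasted SM. It fell by 0.80 on the log2 scale in SM (SE 0.09, adjusted p = 2.01e-07) and by 0.98 in WAT. Steap4, a metalloreductase abundant in fat, fell by 1.47 in WAT (adjusted p = 5.33e-10) and by 0.74 in LIV. Slc39a14, which imports iron not bound to transferrin, was 6.60 to 6.75 in fed and 7.46 to 8.05 in fasted SM, a rise of 1.04 (SE 0.09, adjusted p = 1.03e-09). Slc39a8, a related importer, rose by 0.93 in WAT. The others called, named after their values were seen, were Cybrd1 (0.81), Slc39a14 (0.38) and Slc22a17 (-0.53) in WAT and Scara5 (0.46) and Steap4 (-0.67) in SM. Scara5 was not called with all 30 arrays (0.41, adjusted p = 0.0584), nor without fasted SM 1 (0.44), fasted SM 4 (0.46) or fed SM 3 (0.34). Slc39a14 in WAT was below the minimum fold without fasted WAT 3 (0.34) or fed WAT 1, 2 or 5 (0.35, 0.36 and 0.37). Lcn2, a siderophore-binding protein made in inflammation, rose by 1.70 in SM, from a dim fed mean of 4.49 to 6.18. It was not called without fasted SM 3 (1.37, adjusted p = 0.106) or without fasted SM 1 (1.64, adjusted p = 0.0525). A replicate block within tissue also lost the call (1.62, limma adjusted p = 0.110).

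Of 8 measured of 9 genes of iron storage and sensing, 1 fell in WAT (median -0.04). None was called in LIV (median -0.05) and 1 rose in SM (median -0.03). Among all probe sets, 13.2% were called in WAT, 6.55% in LIV and 11.9% in SM. Ftl1, the ferritin light chain, was 7.37 to 7.78 in fed and 7.93 to 8.38 in fasted SM, a rise of 0.56 (SE 0.10, adjusted p = 8.28e-05). Aco1, which doubles as an iron regulatory protein, fell by 0.60 on the log2 scale in WAT (adjusted p = 3.27e-07). None of the 3 ferroxidases that act with ferroportin was called in any tissue.

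In mitochondria, 15 of 18 genes of iron import and iron-sulfur clusters were measured. Of these 3 rose in WAT (median 0.10), 3 fell in LIV (median 0.06) and 2 rose in SM (median -0.10). Slc25a37, mitoferrin, which carries iron into mitochondria, rose by 0.67 in WAT (adjusted p = 5.15e-06) and fell by 0.79 on the log2 scale in LIV (adjusted p = 3.66e-06). Abcb10, its stabilizing partner, fell by 0.73 in LIV, and Fdx1, a ferredoxin, rose by 0.52 in WAT and fell by 0.48 in LIV. Glrx5, which passes on iron-sulfur clusters, rose by 0.44 in WAT. In SM, Iba57, a cluster assembly factor, rose by 0.73 and Slc25a28, the second mitoferrin, by 0.41, the latter below the minimum fold with all 30 arrays (0.38) and without fasted SM 3 (0.38), fasted SM 4 (0.36) or fed SM 2 (0.38). With all 30 arrays Glrx5 was called lower in SM (-0.39, from -0.34 below the minimum fold).

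Of 10 measured of 11 other genes of heme synthesis, 2 rose and 1 fell in WAT (median -0.24), 1 rose and 1 fell in LIV (median -0.06) and 3 rose in SM (median 0.04). Alas2, the form of the first enzyme known from red cell precursors, rose by 0.73 in WAT (adjusted p = 2.71e-05) and by 0.61 in SM and fell by 0.57 on the log2 scale in LIV. The SM call was lost with all 30 arrays (0.38, adjusted p = 0.130), where 1 gene of the list rose. Of 3 further erythroid markers measured, Slc4a1, Epb42 and Klf1, none was called in any tissue. Klf1 was higher in fasted LIV without overlap (0.35, adjusted p = 0.00568), below the minimum fold, where Alas2 fell, and Slc4a1 differed by 0.26 in WAT (adjusted p = 0.171), where Alas2 rose. Epb42 was dim in all groups. Klf1 averaged 4.72 in fed and 5.07 in fasted LIV, and it was dim in WAT and SM. Slc4a1 averaged 4.96 in fed and 5.22 in fasted WAT, near the dim limit of 5.02, and it was dim in SM. Only 4 of 10 listed erythroid markers were measured, Alas2 included, and the part of red cells was not tested. Clpx, a mitochondrial unfoldase that activates the first enzyme, rose by 0.64 in SM and 0.41 in WAT, the latter below the minimum fold without fasted WAT 1 (0.37) or fed WAT 4 (0.36). Cpox, a late enzyme of the pathway, rose by 0.56 in LIV (adjusted p = 1.16e-05), Slc25a38, a glycine carrier, by 0.38 in SM, and Abcb6 fell by 0.39 in WAT. The last pair sat close to the minimum fold and dropped below it under several alternatives, Slc25a38 with all 30 arrays (0.33) and without fasted SM 1 (0.38), fasted SM 4 (0.35) or fed SM 5 (0.33), and Abcb6 without fasted WAT 1 or 2 (-0.37 and -0.36) or fed WAT 1, 3 or 4 (-0.37, -0.38 and -0.36).

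Of 11 measured of 12 genes of heme breakdown and transport, 4 rose and 1 fell in WAT (median 0.19), 1 rose and 2 fell in LIV (median -0.06) and 3 rose and 1 fell in SM (median 0.06). Hmox1, heme oxygenase, which splits heme and frees its iron, was 5.83 to 6.33 in fed and 7.19 to 7.84 in fasted SM. It rose by 1.45 in SM (SE 0.13, limma adjusted p = 1.51e-09) and fell by 0.56 on the log2 scale in LIV (adjusted p = 0.00306). Cd163, the receptor of macrophages for hemoglobin bound to haptoglobin, rose by 1.13 in WAT and 0.73 in SM, and it is also 1 of the macrophage markers above. Slc46a1, a transporter of folate and heme, fell by 0.99 in WAT and by 0.40 in LIV, the latter below the minimum fold without fasted LIV 4 (-0.35). Flvcr2 rose by 1.09 in LIV and by 0.82 in WAT, and Abcg2, an exporter of porphyrins, rose by 0.57 in SM. The others called, named after their values were seen, were Abcg2 (0.63) and Hmox1 (0.57) in WAT and Slc46a1 (-0.41) in SM, the last below the minimum fold without fasted SM 3 (-0.36) or fed SM 3 (-0.37).

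**Figure D5:**
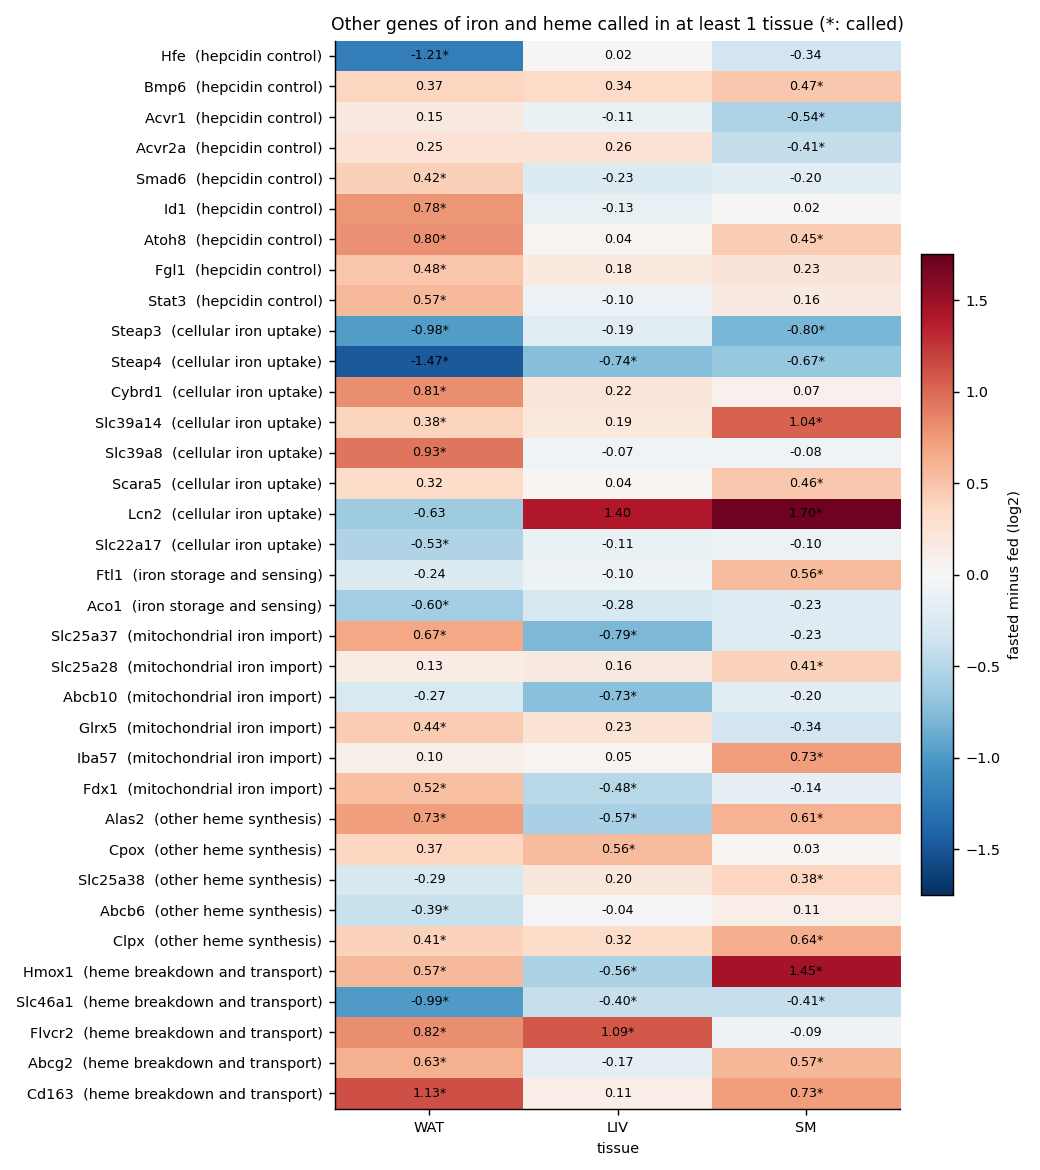
Fasted minus fed difference on the log2 scale (color and printed value) in WAT, LIV and SM (columns) for the 35 genes of 6 lists of iron and heme (rows) that were called in at least 1 tissue, with a star for each call. Alas2 and Slc25a37 rise in WAT and fall in LIV, and Hmox1 rises in SM and falls in LIV.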

How the data were processed

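The arrays held 30 RNA samples, 1 for each mouse and tissue. The authors normalized the scans by RMA in Partek and deposited log2 values for 28815 probe sets, used here as given. These values set every array to a like distribution, so a change in total mRNA is not seen. Of all columns, 0 lacked a sample. Gene symbols came from the platform annotation (21153 probe sets with 1 symbol), and a gene took its probe set of highest mean, which gave 18781 genes.

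With limma 3.58.1 in R 4.3.3, 6 group means were estimated from 28 arrays, without fed LIV 4 and fasted SM 5. The text of the study names fasted SM 1 instead of fasted SM 5, which was tried as an alternative. Adjustment of p was by Benjamini-Hochberg over all probe sets of a contrast. Differences between tissues needed only the adjusted p. Groups of 4 or 5 arrays limit the precision. The labels number 5 biological replicates in each group, so p-values measure the spread between mice. The members and the gene lists were chosen with earlier results of these data known. Named are the 9 genes, Hamp2, up to 3 called genes of each list and tissue with the largest changes, and the genes most like each of the 9. Other genes are said to have been named after their values were seen or for a call that changes with all 30 arrays. The fit was tested on simulated data. Alternatives were all 30 arrays, no moderation of variances, each tissue on its own, no dim probe sets, a replicate block within tissue, cyclic loess, a random block for mice, averaged probe sets, other thresholds and leaving out single arrays. Marker means as covariates, 29 arrays, and the runs for Hamp2 and the lists were added after seeing the data. Tables and figures used Python 3.11.15 with pandas 2.3.3, scipy 1.17.1 and matplotlib 3.10.9.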

Additional observations from a re-analysis of the deposited data

Results flagged for a closer look

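Among 54 sets of 4 or 5 arrays (9 genes in 6 groups), 5 held an array whose gap to the next, as a share of the whole range, passed Dixon's 95% critical value, and chance gives about 1 in 20. Hamp on fasted WAT 3 was 3.98 against 3.29 to 3.34 on the others (share 0.922), at dim levels. Tfrc on fed LIV 3 was 7.32 against 6.52 to 6.64 (share 0.859), and Tfrc on fed SM 2 was 9.27 against 9.51 to 9.59 (share 0.746). Alas1 on fasted WAT 2 was 10.75 against 10.48 to 10.51 (share 0.882). Fech on fed WAT 4 was 8.15 against 8.26 to 8.30 (share 0.774).

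Of 27 differences of the fasting change between tissues, 8 passed an adjusted p under 0.05 for the difference itself in limma. Among all probe sets, 17.7% passed for LIV minus WAT, 17.1% for SM minus WAT and 16.4% for LIV minus SM. For Tfrc these were SM minus WAT (-1.56), LIV minus SM (2.13) and LIV minus WAT (0.56). For Slc40a1 they were LIV minus WAT (-0.946) and LIV minus SM (-1.03). Smaller ones were LIV minus WAT for Tfr2 (0.32, with dim values in WAT) and Fech (-0.27) and SM minus WAT for Slc11a2 (-0.38).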

How the results depend on the processing

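Alternatives were compared for the fasting changes of the 9 genes, of Hamp2 in LIV and of the called list genes. Of these values, 3329 kept their side of the threshold, 61 lost a call, 5 gained one and 0 changed direction while called. Some uncalled changes near 0 changed sign, such as Hpx in SM (-0.19 to 0.08). Of the 9 genes, 2 were called in WAT, but 1 with all 30 arrays, 1 at a minimum of 1.5-fold, and 1 to 2 when each array was left out in turn. In LIV 0 were called, but 1 with all 30 arrays, 1 without a minimum fold, and 0 to 1 when each array was left out. In SM 2 were called, and 2 to 3 when each array was left out. With fasted SM 1 left out in place of fasted SM 5, the calls of Tfrc and Slc40a1 in SM held. Among list genes, that fit lost the SM calls of Alas2 (0.25, limma adjusted p = 0.357) and Scara5 (0.39, adjusted p = 0.0768). It also lost those of Atoh8 (0.37), Bmp6 (0.33) and Slc25a38 (0.31), through the minimum fold. Of the 8 differences between tissues, 4 passed at a false discovery rate of 1%, and 5 to 9 when each array was left out. Deviations of same-numbered fed and fasted arrays correlated at r from -0.25 to 0.16. Differently numbered pairs ranged from -0.51 to 0.40, so the numbers stand out in no way here. So few pairs cannot show whether the numbers share a processing order, and the mice of each diet were different animals. A replicate block within tissue called 3 genes in SM, adding Trf (-0.44, adjusted p = 0.0469), and changed no other call of the 9 genes within tissues. Hamp, Tfr2 and Hpx lay below 5.02, the median of all values, in WAT and SM, where low signal limits what can be read, the Tfr2 difference in WAT included.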

Other observations

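Some genes on lists beside the pathway also changed. Of 5 measured of 8 genes that control Alas1, 2 rose in LIV (median 0.30), Ppargc1a by 0.89 (adjusted p = 0.00147) and Foxo1 by 0.55 (adjusted p = 2.43e-07), both in limma. In SM Foxo1 rose by 1.28 and Ppargc1a fell by 0.66 on the log2 scale, and in WAT none was called. Of 10 measured of 11 acute phase proteins, 2 fell in LIV (median -0.17), Saa2 (-0.91) and Apcs (-0.64), and the Saa2 call was lost when LIV was fitted on its own (adjusted p = 0.117). In WAT Orm3 fell by 1.73 and Saa3 rose by 1.16, the latter 0.75 without fasted WAT 2 (adjusted p = 0.0577). In SM Orm1 fell by 1.49.

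Over the 28 arrays, which share 3 tissues with very different levels, the genes most like each of the 9 by Pearson r were Dsg2 and Upb1 for Hamp (both 0.999), Hrg and Slc10a1 for Hpx (both 0.999), Agxt2 and Ugt3a1 for Tfr2 (both 0.999) and Cdo1 (0.995) and Apoe (0.994) for Trf. Tfrc was most like Zfp710 (0.972) and Zfp280b (0.963), and Slc40a1 most like Pcgf6 (0.980) and Hook1 (0.965). Slc11a2 was most like Snx24 (0.952) and Mmaa (0.950), Fech most like Mreg (0.979) and Tmem147 (0.976), and Alas1 most like Eme2 (0.860) and Tmtc2 (0.853). Over the 9 liver arrays alone, Hamp had its highest r with Rps24, Snord82 and Mydgf (all 0.93) and its lowest with Ubap2l (-0.96), Scamp3 (-0.95) and Pqlc3 (-0.95). These describe the arrays and carry no test.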
